A study of Mus musculus with 15 samples.

Results

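The genes described are the 8 enzymes and cofactors that write, copy and remove 5-methylcytosine in DNA: Dnmt1, Uhrf1, Dnmt3a, Dnmt3b, Dnmt3l, Tet1, Tet2 and Tet3. They were chosen by name, every probe set annotated to one of them alone was taken, and this gave 20 of the 45037 probe sets tested and 8 of 18193 genes measured. RNA had been hybridised to Affymetrix mouse arrays from 5 kinds of cells with 3 arrays each. Per the labels, MEF are embryonic fibroblasts of the B6D2F1 background from which iPS cells were made, CL11 is a B6D2F1 embryonic stem (ES) line, IP14D-1 and IP20D-3 are induced pluripotent stem (iPS) lines of the B6D2F1 background, and IP14D-101 is an iPS line of the C57x129S2 background. Each pluripotent type is 1 line, so no line stands for its type, and for IP14D-101 line and background cannot be told apart. The ES and iPS cells were grown with LIF on feeder fibroblasts treated with mitomycin C, in medium with serum or with a serum replacement, and which line had which medium is not given in the sources used here. The reprogramming factors and their vector are likewise not given there. The submitters call the 3 samples of a group biological replicates, without saying that they were separate cultures, so p values measure the spread between these samples only.

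DNA methylation in mammals is carried mainly by CpG dinucleotides. Dnmt3a and Dnmt3b are the de novo methyltransferases, which methylate unmarked DNA, and Dnmt3l is a catalytically inactive cofactor that stimulates them. Dnmt1 copies the pattern onto the new strand after replication, and Uhrf1 brings it to hemimethylated sites. The Tet proteins oxidise 5-methylcytosine, which starts active removal or lets the mark be diluted at replication. Pluripotent cells of the mouse are known for high expression of de novo methyltransferases together with Tet1 and Tet2, and Dnmt3b is higher in the primed epiblast than in the naive state.

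RefSeq (GRCm38.p6) lists 15 start sites for the 8 genes, and windows from 250 bases before to 50 bases after each start were compared with the 32851 windows of the same length in its table. The median window held 7 CpG dinucleotides, and 11 of the 15 windows held more. The 250 bases before the start are shown for 5 genes, because these genes, all higher in the lines than in fibroblasts, had start regions of unlike CpG content. CpG dinucleotides are in capitals and each sequence reads in the direction of the gene.

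Dnmt3l: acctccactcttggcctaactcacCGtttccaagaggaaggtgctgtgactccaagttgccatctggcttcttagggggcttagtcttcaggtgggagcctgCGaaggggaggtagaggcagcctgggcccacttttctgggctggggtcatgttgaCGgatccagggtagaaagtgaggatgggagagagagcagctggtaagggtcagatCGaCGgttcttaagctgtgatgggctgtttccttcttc
Dnmt3b: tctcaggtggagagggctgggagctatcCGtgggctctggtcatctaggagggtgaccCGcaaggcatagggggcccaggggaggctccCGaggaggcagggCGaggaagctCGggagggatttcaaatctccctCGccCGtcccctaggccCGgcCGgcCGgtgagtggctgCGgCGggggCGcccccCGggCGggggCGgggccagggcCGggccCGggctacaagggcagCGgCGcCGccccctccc
Tet1: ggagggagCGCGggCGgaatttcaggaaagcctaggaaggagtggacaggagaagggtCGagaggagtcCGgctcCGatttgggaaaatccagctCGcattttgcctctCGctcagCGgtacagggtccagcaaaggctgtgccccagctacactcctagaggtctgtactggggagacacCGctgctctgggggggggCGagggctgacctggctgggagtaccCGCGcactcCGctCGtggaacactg
Tet2: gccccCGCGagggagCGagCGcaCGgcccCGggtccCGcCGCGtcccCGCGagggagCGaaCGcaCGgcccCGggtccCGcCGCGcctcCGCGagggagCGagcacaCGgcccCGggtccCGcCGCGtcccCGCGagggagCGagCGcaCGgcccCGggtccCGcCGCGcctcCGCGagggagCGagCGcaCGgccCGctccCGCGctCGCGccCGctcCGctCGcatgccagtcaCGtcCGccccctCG
Dnmt3a, first start: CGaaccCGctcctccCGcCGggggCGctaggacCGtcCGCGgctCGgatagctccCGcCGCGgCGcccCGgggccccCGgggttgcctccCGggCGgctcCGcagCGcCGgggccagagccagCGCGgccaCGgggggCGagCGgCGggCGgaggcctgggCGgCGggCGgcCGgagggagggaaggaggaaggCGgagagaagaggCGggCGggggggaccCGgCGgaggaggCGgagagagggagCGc
Dnmt3a, internal start: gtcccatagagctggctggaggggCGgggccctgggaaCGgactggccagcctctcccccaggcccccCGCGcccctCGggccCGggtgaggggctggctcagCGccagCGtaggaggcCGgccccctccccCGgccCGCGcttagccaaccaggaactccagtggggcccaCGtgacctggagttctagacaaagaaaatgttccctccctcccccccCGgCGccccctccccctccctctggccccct

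The Dnmt3l stretch lies before the first of its 3 listed starts, at chr10:78042037-78042286 on the plus strand. It holds 5 CpG, against a median of 6 over the same 250 bases of all windows. The other listed starts lie 7555 and 13048 bases further along the gene. Which Dnmt3l start the lines use is not given in the sources used here. The other Dnmt3l windows held 4 and 3 CpG in 300 bases, so all 3 lay below the median window. The Dnmt3b stretch (chr2:153649199-153649448, plus strand) holds 21 CpG, the Tet1 stretch (chr10:62887325-62887574, minus strand) 15 and the Tet2 stretch (chr3:133544391-133544640, minus strand) 51, more than 99.9% of windows. The first Dnmt3a stretch (chr12:3806730-3806979, plus strand) holds 38 CpG. The internal one, 84764 bases further along the gene (chr12:3891494-3891743), holds 15. A short form of Dnmt3a that starts within the gene is known as the main form in ES cells. Which form each probe set reads is not given in the sources used here. Of the motifs searched on both strands of the full windows, the GC box GGGCGG was present in 12 of the 15 windows, against 35.7% of all windows. Windows 1 and 2 of Dnmt3a overlap, with starts 180 bases apart, so the 15 are not separate sequences. The share among windows of like CpG content was not counted. The octamer ATGCAAAT, which Oct factors bind, was in 0 of the 15 and in 1.74% of all windows. The E2F motif TTTGGCGC was found once, from base 34 after the third Dnmt1 start (0.514% of all windows hold it), and TTTCCCGC in none of the 15 (1.07% of all windows).

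Values are MAS5 signals scaled to a common 2% trimmed mean, and tests are on log2(signal + 16). A gene is described by its main probe set, the one with the highest mean over all arrays, and a signal of 2087 (log2 11.04), the 95th percentile of 39 olfactory receptor genes, was taken as background. A difference counts as a rise or a fall where limma's p, adjusted by Benjamini and Hochberg over all 45037 probe sets, is under 0.05. Where 4 values are given for the lines they stand in line order, which is CL11 first, then the iPS lines IP14D-1 and IP14D-101, then IP20D-3. Labels were checked first. All 8 pluripotency markers examined were above background in each of the 4 lines, and in MEF only Utf1 was. Pou5f1 was at least 208-fold to 238-fold higher in the lines than in MEF. All 10 fibroblast markers were above background in MEF, with summed signals of 4611569 to 5095053, against 3 of 10 and sums of 13108 to 20737 in CL11, IP14D-101 and IP20D-3. IP14D-1 had 6 of 10 above background, Col1a1 among them, and sums of 34252 to 36367. All 7 macrophage markers were above background in MEF and 2 or 3 of 7 in the lines. The 3' to 5' actin ratio, a sign of RNA quality, was 1.32 to 1.39 in IP14D-1 and 1.14 to 1.3 on all other arrays. In bulk RNA, fewer cells of a type and less RNA per cell cannot be told apart.

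The first question was how the methylation machinery differs between fibroblasts and pluripotent cells. In every line 7 of the 8 genes rose on their main probe sets: Dnmt1, Uhrf1, Dnmt3a, Dnmt3b, Dnmt3l, Tet1 and Tet2. The background share was 29.7% of 18193 genes higher in CL11 than in MEF. For IP14D-1 it was 29.3%, for IP14D-101 29.9% and for IP20D-3 also 29.9%. The members' median log2 change was 3.77, 3.11, 3.78 and 3.47 in line order, beside 0.07, 0.13, 0.05 and 0.1 over all genes. All 28 of these rises kept their direction and call under each alternative run, none of which took another probe set of the gene. Tet3 was near or below background throughout. Counting probe sets, 17 of 20 were higher than in MEF in each line, but in IP14D-101 they were not the same 17. There Dnmt3a probe set 1423063_at passed and Tet2 probe set 1438781_at did not. The share over all probe sets was not counted. Most arrays are from the lines, so choosing the main probe set by its mean over all arrays favours probe sets bright there. In MEF the brightest for Dnmt3a was 1423063_at (mean signal 11926, main one 5000), which rose only in IP14D-101. For Tet2 it was 1438781_at (8683, main one 6811), which rose in every line but IP14D-101. The other probe sets of Dnmt1, Uhrf1, Dnmt3b and Tet1 also rose in every line.

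**Figure D1:**
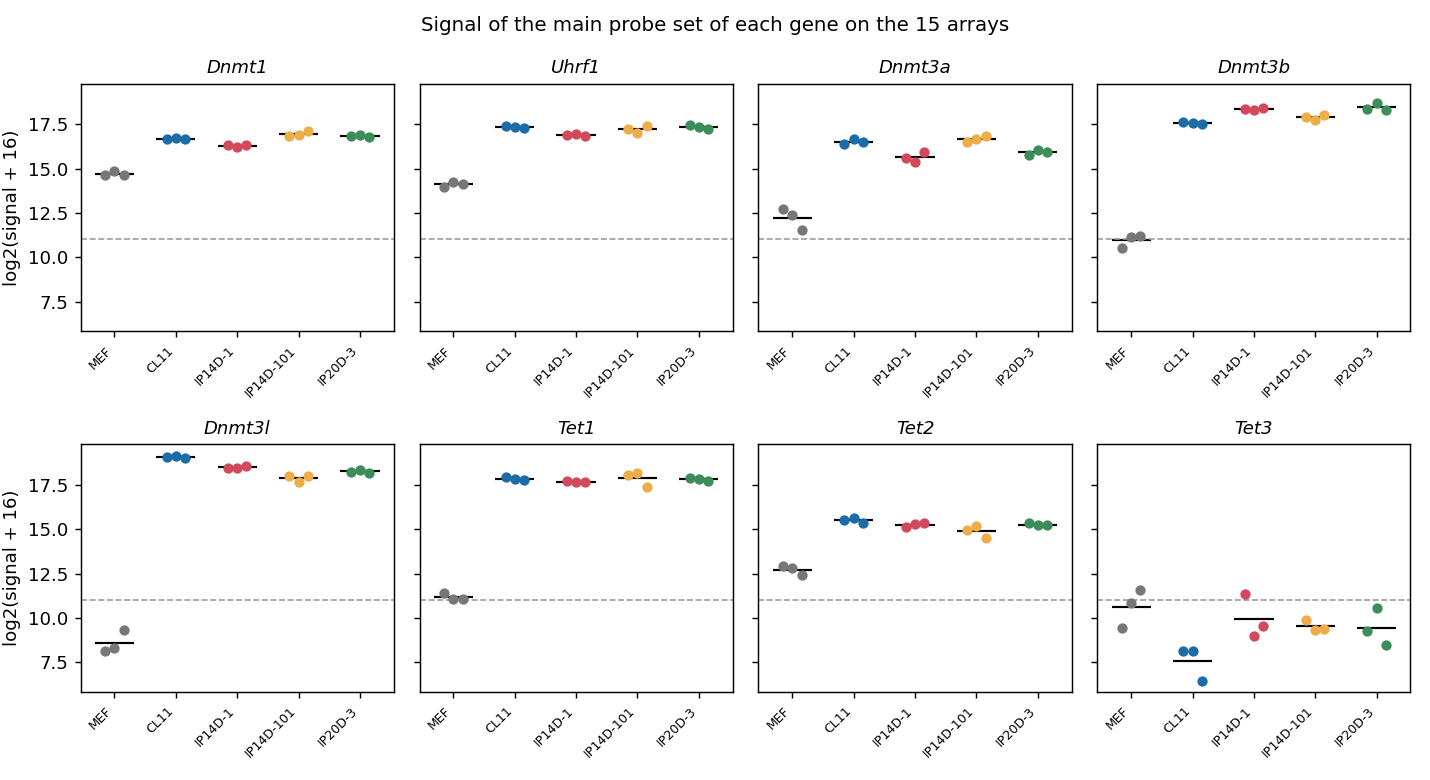
Signal of the main probe set of each gene on the 15 arrays, as log2(signal + 16) on the y axis. Points are arrays, short black lines are group means over 3 arrays, and the dashed line is background at 11.04. For 7 genes every array of the 4 lines lies above every MEF array, and Tet3 stays around or below the dashed line.

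The maintenance enzymes were already well above background in fibroblasts. Dnmt1 had signals of 25404, 29989 and 25590 in MEF. It had 104601, 108740 and 103250 in CL11 and 80773, 75679 and 83446 in IP14D-1. IP14D-101 read 114615, 121144 and 139470, while IP20D-3 read 115553, 119931 and 111564. Every array of a line lay above every MEF array, and IP14D-1 had the lowest values of the 4 lines. The log2 rise over MEF was 1.97, 1.57, 2.21 and 2.1 in line order (standard error 0.09, adjusted p = 1.43e-11 or less), or 2.97-fold to 4.63-fold. The other Dnmt1 probe sets, both of a kind that can share sequence with other transcripts, rose by 1.67 to 2.76.

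Uhrf1 rose further from a similar pattern. MEF arrays read 15656, 19153 and 18115. CL11 read 172911, 166794 and 156995, IP14D-1 123164, 124113 and 118288, IP14D-101 153493, 131600 and 169895, and IP20D-3 176498, 164958 and 152436. The lines did not overlap MEF, and IP14D-1 again lay below the other lines. The rise was 9.4-fold, 6.93-fold, 8.57-fold and 9.34-fold in line order (log2 2.79 to 3.23, standard error 0.09, adjusted p = 1.81e-14 or less). Its other probe set rose by 2.51 to 3.54 on the log2 scale. Of the markers of dividing cells, 10 of 10 measured were above background in all groups. Their summed signal was 725238 to 770199 in MEF, 2651653 to 2777841 in IP14D-1 and 2907158 to 3407088 in the other lines. Their sum thus moved with Dnmt1 and Uhrf1, though Mki67 was highest of the lines in IP14D-1 (log2 16.49, against 16.38 to 16.42). The part of division markers in these results was not tested.

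The de novo enzymes showed the wider changes. Dnmt3a read 6653, 5427 and 2920 in MEF, 86209, 104550 and 90906 in CL11 and 50047, 42707 and 62396 in IP14D-1. IP14D-101 read 92389, 102553 and 118988, while IP20D-3 read 56760, 68246 and 63363. All line arrays lay above MEF, with CL11 and IP14D-101 higher than IP14D-1 and IP20D-3 and no overlap between these pairs of lines. The rise over MEF was 19.7-fold, 10.8-fold, 22-fold and 13.2-fold in line order (log2 3.43 to 4.46, standard error 0.21, adjusted p = 8.13e-11 or less).

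The 5 Dnmt3a probe sets did not read alike. The main one, 1423066_at, and 1423064_at rose together, the latter by 4.21 to 5.23 on the log2 scale, and 1423065_at rose by 1.2 to 2.32. In contrast 1423063_at, at 12222, 12321 and 11236 in MEF, read 14181, 12442 and 12659 in CL11, 9336, 10483 and 11068 in IP14D-1 and 10692, 12663 and 10177 in IP20D-3. It passed the test against MEF only in IP14D-101, where it read 19523, 21508 and 18537, a log2 rise of 0.73 ± 0.13 (standard error, adjusted p = 8.01e-05). The fifth, 1460324_at, was 7322, 6378 and 6276 in MEF and lower in IP14D-1 at 2757, 3170 and 2138, a fall by 1.32 ± 0.3 on the log2 scale (adjusted p = 0.00119), and it did not pass the test in the other lines. All 5 had group means above background in every group, so these differences are measured ones.

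**Figure D2:**
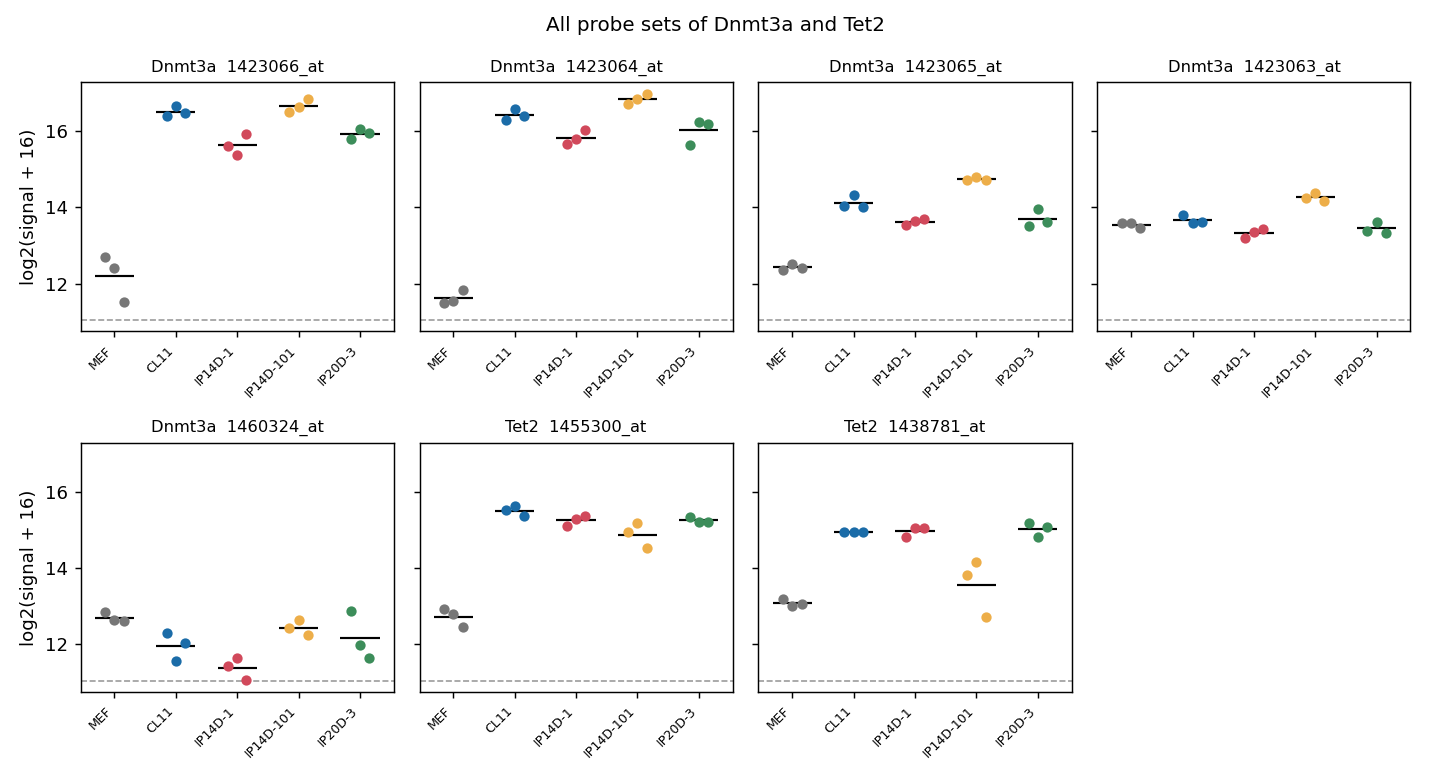
All 5 probe sets of Dnmt3a and both of Tet2 on the 15 arrays, as log2(signal + 16) on the y axis, with arrays as points, group means as short black lines and background as a dashed line. Dnmt3a probe sets 1423066_at and 1423064_at rise steeply from MEF, while 1423063_at and 1460324_at do not, and Tet2 probe set 1438781_at is lower in IP14D-101 than in the other lines.

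Dnmt3b read 1468, 2290 and 2327 in MEF, around background. It read 203579, 195823 and 184705 in CL11 and 332087, 317881 and 354353 in IP14D-1. IP14D-101 read 250391, 217206 and 269487, while IP20D-3 read 338057, 423811 and 320001. CL11 was the lowest line on every array, and IP14D-1 and IP20D-3 were the highest. Because the MEF mean lay below background, the folds are lower bounds, with MEF arrays below background raised to it: by factors of at least 86.5, 149, 109 and 159 in line order (adjusted p = 2.95e-17 or less). The second Dnmt3b probe set, whose MEF mean was just above background, rose 38.6-fold, 63.1-fold, 52.9-fold and 74.3-fold.

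Dnmt3l, the cofactor, was not above background in fibroblasts and bright in every line. MEF arrays read 269, 299 and 637, all below background. CL11 read 552583, 583721 and 537667, IP14D-1 362034, 353427 and 391387, IP14D-101 267678, 211195 and 263517, and IP20D-3 307017, 337041 and 299059. All CL11 arrays lay above all iPS arrays. The folds over MEF were at least 265, 175, 117 and 149 in line order (adjusted p = 2.96e-17 or less). Dnmt3l has 1 probe set, of a kind that can bind transcripts of more than 1 gene.

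Among the demethylating enzymes Tet1 changed most from fibroblasts. It read 2711, 2137 and 2122 in MEF, just above background, 249991, 229327 and 222521 in CL11 and 215895, 211638 and 205963 in IP14D-1. IP14D-101 read 270587, 291303 and 173869, while IP20D-3 read 240670, 238486 and 213105. No line overlapped MEF. All CL11 arrays lay above all IP14D-1 arrays, and the other pairs of lines overlapped. The rise was 101-fold, 90.9-fold, 103-fold and 99.1-fold (log2 6.51 to 6.69, standard error 0.14, adjusted p = 4.39e-17 or less). The other 3 Tet1 probe sets also rose in all lines, the dimmest by at least 2.08-fold to 2.48-fold.

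Tet2 was measurable in fibroblasts and rose less. MEF read 7711, 7139 and 5584, CL11 46995, 50665 and 42542, IP14D-1 35663, 39658 and 41939, IP14D-101 31444, 37296 and 23523, and IP20D-3 41737, 38233 and 38268. IP14D-101 replicate 3 was the lowest array of the lines. The rise was 6.89-fold, 5.77-fold, 4.47-fold and 5.82-fold in line order (log2 2.16 to 2.79, standard error 0.15, adjusted p = 3.18e-10 or less).

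Tet3, the Tet enzyme best known from the oocyte and zygote, read 682, 1846 and 3007 in MEF and 272, 269 and 72 in CL11. It read 2581, 487 and 732 in IP14D-1, 921, 635 and 650 in IP14D-101, and 595, 1468 and 339 in IP20D-3. Only 1 MEF array and 1 IP14D-1 array exceeded background, and every group mean lay below it. The fitted difference of CL11 from MEF passed the test (log2 -3.03 ± 0.81, adjusted p = 0.00474), but with both means below background it has no measured fold. The other lines did not pass (adjusted p = 0.266 to 0.574).

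**Figure D3:**
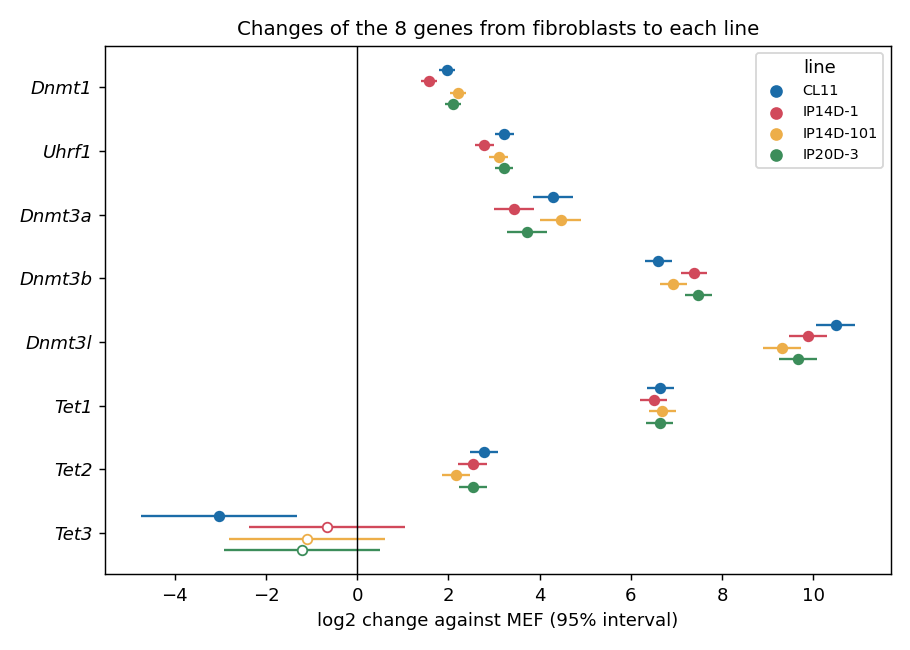
Log2 change of each gene from MEF to each line on the x axis, with the 95% interval from limma, for the main probe set of the 8 genes. Filled points have an adjusted p under 0.05. Dnmt3l, Dnmt3b and Tet1 lie farthest to the right, Dnmt1 rises least of the 7 genes that rose, and Tet3 crosses or lies left of 0. Changes of Dnmt3l and Dnmt3b are fitted values from a MEF level below background.

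The second question was whether the lines differ from one another, and in particular whether iPS lines differ from the ES line. Across the 4 lines 6 of 8 genes differed by limma's F test on their main probe sets, where 36.4% of all genes did. Tet1 (adjusted p = 0.737) and Tet3 (adjusted p = 0.116) did not pass. Of the further Tet1 probe sets only 1419896_at passed this test (adjusted p = 0.0288). Dnmt1 probe set 1447877_x_at and Dnmt3a probe set 1460324_at did not (adjusted p = 0.0549 and 0.0527), and the remaining ones of the 6 genes did. Between pairs of lines, 5 of 8 members differed between IP14D-1 and CL11 (22.2% of all genes), 2 between IP14D-101 and CL11 (9.75%), and 2 between IP20D-3 and CL11 (19.5%). Among iPS lines 5 differed between IP14D-101 and IP14D-1 (26.9% of all genes), 2 between IP20D-3 and IP14D-1 (7.4%) and 2 between IP20D-3 and IP14D-101 (22%). The sizes were small beside the rise from fibroblasts: the 18 differences that passed ran from 0.31 to 1.18 on the log2 scale. The 3 comparisons with CL11 share its arrays. Of the 18, 4 kept their call under all 16 alternatives run for each, and 10 lost it without a trend in the variance model (adjusted p = 0.0505 to 0.155). All of these alternatives were run on the main probe set.

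**Figure D4:**
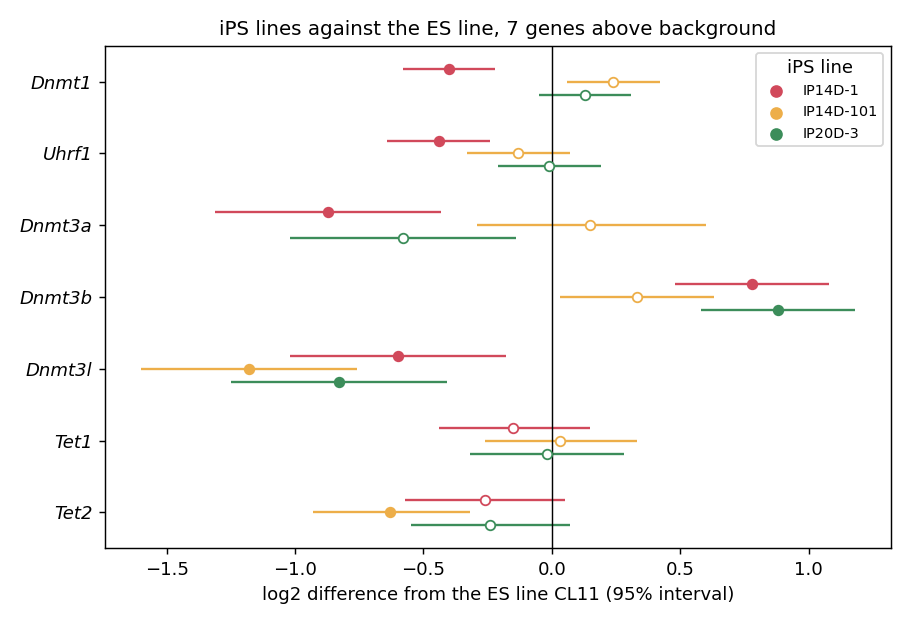
Log2 difference of each iPS line from the ES line CL11 on the x axis, with the 95% interval, for the 7 genes above background. Filled points have an adjusted p under 0.05. Dnmt3b lies to the right of 0 in IP14D-1 and IP20D-3, Dnmt3l lies to the left in all 3 iPS lines, and Tet1 lies near 0.

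Dnmt3b was higher than in CL11 in IP14D-1 and IP20D-3, and Dnmt3l was lower than in CL11 in all 3 iPS lines. Dnmt3b exceeded CL11 by 0.78 ± 0.14 in IP14D-1 (1.72-fold, adjusted p = 0.000701) and by 0.88 ± 0.14 in IP20D-3 (1.84-fold, adjusted p = 0.000245), both kept under all alternatives. In IP14D-101 the difference was 0.33 (95% interval 0.03 to 0.63, adjusted p = 0.188). The second probe set gave 0.71 and 0.94 for IP14D-1 and IP20D-3, both past the test, and 0.46 for IP14D-101 (adjusted p = 0.0713). Dnmt3b in IP14D-101 also lay below IP14D-1 by a log2 difference of -0.45 (adjusted p = 0.0261) and below IP20D-3 (0.55 higher in IP20D-3, adjusted p = 0.0101). On the second probe set the first of these did not pass (-0.25, adjusted p = 0.252) and the other did (0.49, adjusted p = 0.0259). Those calls ended with scaling to the median (adjusted p = 0.747 and 0.189), the latter also with unscaled signals (adjusted p = 0.077) and without IP20D-3 replicate 2 (adjusted p = 0.0664), and the former without IP14D-1 replicate 1 or 3 or IP14D-101 replicate 2 (adjusted p = 0.0637, 0.09 and 0.107).

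Genes of the primed epiblast moved with Dnmt3b. The summed signal of Fgf5, Otx2 and Pou3f1 was 20933 to 26389 in CL11, 37025 to 44718 in IP14D-101, 52870 to 80690 in IP20D-3 and 62953 to 84276 in IP14D-1. All 3 were above background in IP14D-1 and IP20D-3, while Fgf5 was below it in CL11 and IP14D-101, and 0 of 3 were above it in MEF. Otx2 was 2.63-fold higher in IP14D-1 than in CL11 (adjusted p = 7.89e-05) and 2.15-fold higher in IP20D-3 (adjusted p = 0.000763). The part of these cells in the Dnmt3b difference was not tested.

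Dnmt3l was lower than in CL11 by a log2 difference of -1.18 ± 0.2 in IP14D-101 (2.27-fold, adjusted p = 0.000952), kept under all alternatives. It was -0.83 ± 0.2 in IP20D-3 (1.78-fold, adjusted p = 0.00736), a call that ended without the trend (adjusted p = 0.0605). In IP14D-1 it was -0.6 ± 0.2 (1.51-fold, adjusted p = 0.0457), and leaving out any 1 of the 6 arrays of CL11 and IP14D-1 ended that call (adjusted p = 0.0747 to 0.131), as did unscaled signals (adjusted p = 0.477). IP14D-101 lay below IP14D-1 by a log2 difference of -0.58 (adjusted p = 0.0406), a call that ended without any 1 of their 6 arrays (adjusted p = 0.0507 to 0.144) and with scaling to the median (adjusted p = 0.471). Dnmt3b and Dnmt3l thus had opposite orders in part: CL11 was lowest for the enzyme and highest for its cofactor, while IP14D-101 was the lowest for Dnmt3l and next to CL11 for Dnmt3b. No test of that contrast between the 2 genes was run.

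Dnmt3a was higher in IP14D-101 than in IP14D-1 and IP20D-3, and higher in CL11 than in IP14D-1. IP14D-101 exceeded IP14D-1 by 1.03 ± 0.21 (2.04-fold, adjusted p = 0.00144), kept under all alternatives, and the other 4 probe sets gave 0.95 to 1.11, all past the test. IP14D-1 was below CL11 by a log2 difference of -0.87 ± 0.21 (adjusted p = 0.00662), a call that ended without the trend (adjusted p = 0.0505). IP20D-3 was below IP14D-101 by -0.73 ± 0.21 (adjusted p = 0.0196), a call that ended without IP14D-101 replicate 3 (adjusted p = 0.0791) or IP20D-3 replicate 1 (adjusted p = 0.0815). IP20D-3 against CL11 did not pass (-0.58, 95% interval -1.02 to -0.14, adjusted p = 0.0765), and of the other 4 probe sets only 1423065_at passed there (-0.42, adjusted p = 0.0428). IP14D-101 against CL11 did not pass on the main probe set (0.15, adjusted p = 0.764). It did on 1423065_at and 1423063_at (0.62 and 0.6, adjusted p = 0.00714 and 0.0063). On 1423064_at and 1460324_at it did not (0.42 and 0.48, adjusted p = 0.0914 and 0.412). CL11 and IP14D-101 also had more signal from primitive endoderm markers than IP14D-1 and IP20D-3. Of these 8 of 8 markers were above background in CL11 (summed signal 307470 to 323266) and IP14D-101 (215484 to 255401), against 4 of 8 in IP14D-1 (47985 to 50760, with Gata6, Sox17, Foxa2 and Pdgfra below) and 3 of 8 in IP20D-3 (25461 to 27832). In MEF, where Gata6 and Pdgfra are also expressed, 4 of 8 were above it and the sum was 733166 to 795927. Their part in the Dnmt3a difference was not tested.

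On their main probe sets Dnmt1 and Uhrf1 were lowest of the lines in IP14D-1. Dnmt1 there differed from CL11 by -0.4 ± 0.09 (adjusted p = 0.00265), and was exceeded by IP14D-101 by 0.64 (adjusted p = 2.75e-05) and by IP20D-3 by 0.53 (adjusted p = 0.000764). The other 2 Dnmt1 probe sets passed only in IP14D-101 against IP14D-1 (0.48 and 0.45, adjusted p = 0.013 and 0.0421). They did not pass in IP14D-1 against CL11 (-0.15 and -0.22, adjusted p = 0.534 and 0.379) or in IP20D-3 against IP14D-1 (0.28 and 0.5, adjusted p = 0.298 and 0.0662). Uhrf1 differed from CL11 by -0.44 ± 0.09 (adjusted p = 0.00285) and was exceeded by IP14D-101 by 0.31 (adjusted p = 0.0232) and by IP20D-3 by 0.43 (adjusted p = 0.0101). Its other probe set passed in the same 3 pairs (-1.04, 0.8 and 0.81). IP14D-1 is also the line with the lowest summed signal of division markers, the highest actin ratio and 6 of 10 fibroblast markers above background. Of the division markers, Mki67, Mcm5 and Birc5 were not lowest in IP14D-1, while the others were. The part of these features in the Dnmt1 and Uhrf1 differences was not tested. These 6 calls depend on the scaling. With the deposited signals unscaled, the median of all genes in IP14D-1 minus CL11 was 0.35 and the Dnmt1 difference -0.07, which is -0.42 relative to that median, against -0.43 with scaling. Uhrf1 was -0.46 and -0.47 relative to the same medians. Scaling multiplies all signals of an array by the same factor, so values relative to the median had to stay nearly alike and are no check. With quantile normalization the differences from CL11 were -0.36 for Dnmt1 and -0.4 for Uhrf1 (adjusted p = 0.00328 and 0.00302). Relative to the median of all genes they were -0.29 and -0.33. Uhrf1 in IP14D-101 against IP14D-1 then did not pass (0.21, adjusted p = 0.0896). Uhrf1 in IP14D-101 against IP14D-1 also lost its call when any 1 of the 6 arrays but IP14D-101 replicate 2 was left out (adjusted p = 0.0523 to 0.117), and IP20D-3 against IP14D-1 without IP20D-3 replicate 1 (adjusted p = 0.0598). In the other pairs of lines the main probe sets of Dnmt1 and Uhrf1 did not pass.

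The main probe set of Tet1 passed no comparison between lines. Its difference from CL11 was -0.15 in IP14D-1 (95% interval -0.44 to 0.15), 0.03 in IP14D-101 (-0.26 to 0.33) and -0.02 in IP20D-3 (-0.32 to 0.28). Other Tet1 probe sets gave wider intervals: in IP14D-1 minus CL11, 1419896_at was -0.66 (-1.15 to -0.17, adjusted p = 0.0626) and 1429448_s_at -0.61 (-1.43 to 0.2, adjusted p = 0.337). The first of these was higher in IP14D-101 than in IP14D-1 by 0.93 (adjusted p = 0.0072). IP14D-101 replicate 3 read 173869, apart from 270587 and 291303 in its group. Without it IP14D-101 exceeded IP14D-1 by 0.41 (adjusted p = 0.00624). Scaling to the median also brought a call there (0.54, adjusted p = 0.00425) and in IP14D-1 against CL11 (-0.39, adjusted p = 0.0481).

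Tet2 was lower in IP14D-101 than in CL11 by a log2 difference of -0.63 ± 0.15 (1.54-fold, adjusted p = 0.0126). The call ended without IP14D-101 replicate 3 (-0.44, adjusted p = 0.0521) and without CL11 replicate 2 (-0.57, adjusted p = 0.0687), and with scaling to the median (-0.51, adjusted p = 0.0577). The second Tet2 probe set, 1438781_at, showed a wider gap. It read 14434, 18465 and 6691 in IP14D-101, 31891, 31388 and 31784 in CL11, 29051, 34259 and 34224 in IP14D-1, 37707, 29120 and 34946 in IP20D-3 and 9248, 8207 and 8594 in MEF. All IP14D-101 arrays lay below all arrays of the other lines, and 1 of them lay below MEF. The difference from CL11 was -1.38 ± 0.24 (2.61-fold, adjusted p = 0.00105), and without replicate 3 it was -0.96 (adjusted p = 0.000157). Against MEF this probe set did not pass in IP14D-101 (0.48, adjusted p = 0.109), and without replicate 3 it did (0.91, adjusted p = 9.61e-06). As IP14D-101 alone has the C57x129S2 background, a sequence difference under the probes cannot be told apart from a difference in level.

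Placed in order, neighbours often did not differ. For Dnmt1 the order was IP14D-101, IP20D-3, CL11, IP14D-1 and MEF, and only the last 2 steps passed the test (adjusted p = 0.00265 and 1.43e-11). For Uhrf1 it was CL11, IP20D-3, IP14D-101, IP14D-1 and MEF, also with the last 2 steps passing. For Dnmt3a it was IP14D-101, CL11, IP20D-3, IP14D-1 and MEF, and only the step to MEF passed. For Dnmt3b it was IP20D-3, IP14D-1, IP14D-101, CL11 and MEF, with the steps from IP14D-1 to IP14D-101 and from CL11 to MEF passing. For Dnmt3l it was CL11, IP14D-1, IP20D-3, IP14D-101 and MEF, with the first and last steps passing. For Tet1 (IP14D-101, CL11, IP20D-3, IP14D-1, MEF) and Tet2 (CL11, IP20D-3, IP14D-1, IP14D-101, MEF) only the step to MEF passed.

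Profiles over the 15 arrays were compared by the root mean square difference of log2 values, raised to background and centred on each gene's mean, among 13150 genes above background in some group. The nearest to Dnmt1 were Cad (0.1), Polr2e (0.12) and Cdc45 (0.13), and to Uhrf1 Timeless (0.11), Mcm3 (0.11) and Mcm2 (0.13). Cad starts pyrimidine synthesis, and Cdc45, Timeless, Mcm2 and Mcm3 act at the replication fork. Nearest to Dnmt3b were Cdh1 (0.18), which encodes E-cadherin, Lin28a (0.22) and Mycn (0.24). Nearest to Dnmt3l were Dppa2 (0.34), L1td1 (0.35) and Nanog (0.4), and to Tet1 Slc2a3 (0.2), a glucose transporter, Bex4 (0.22) and Dppa4 (0.22). For Dnmt3a they were Mfsd13a (0.26), Olig1 (0.29) and Hsd17b14 (0.3), and for Tet2 Dkc1 (0.16), Wnk3 (0.17) and Cenpf (0.18). These are descriptions of likeness across 5 groups, all over the same 15 arrays.

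The other genes of the pathway were followed in 5 lists with 70 names, of which 62 genes were measured by a probe set of their own. Against MEF 40, 40, 42 and 41 of the 62 rose in line order, and 11, 9, 10 and 11 fell. These are 64.5%, 64.5%, 67.7% and 66.1% rising, beside 29.7%, 29.3%, 29.9% and 29.9% of all genes, and 17.7%, 14.5%, 16.1% and 17.7% falling, beside 23.3%, 22.3%, 24.2% and 23.2%. The same shares of all genes are the background for each list. Their median log2 change was 0.91, 0.78, 0.92 and 0.74.

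**Figure D5:**
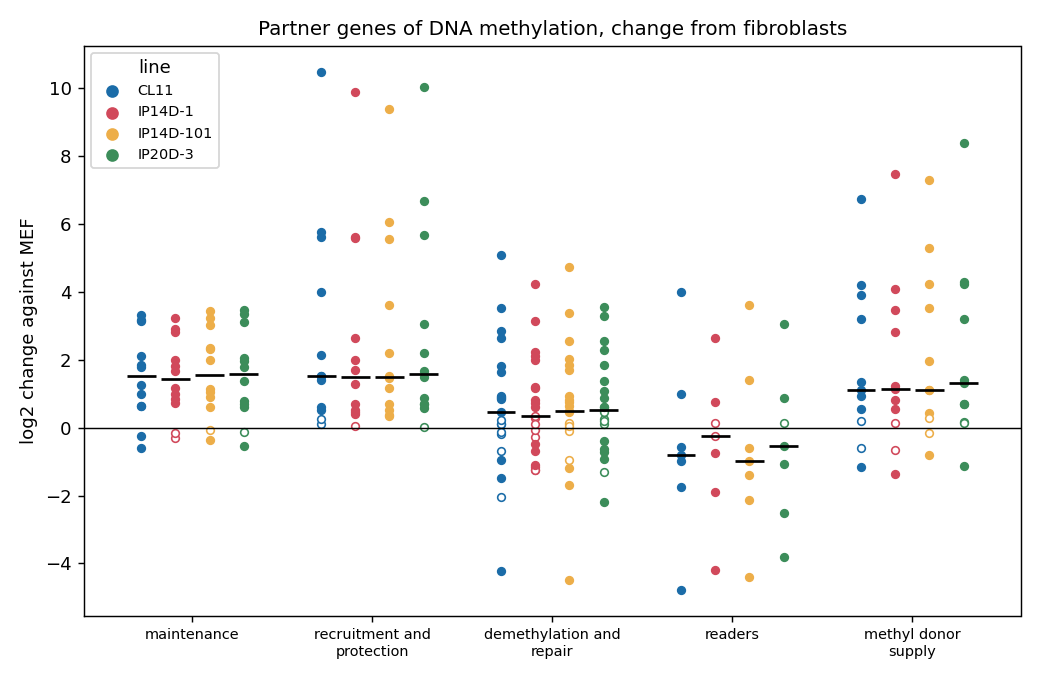
Log2 change from MEF of the partner genes on the y axis, in 5 lists, with 1 point per gene and line and a short black line at the list's median. Filled points have an adjusted p under 0.05. Medians lie above 1 for maintenance, recruitment and methyl donor lists, near 0.5 for demethylation and repair, and below 0 for readers.

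Partners of maintenance rose with Dnmt1 and Uhrf1. Of 12 genes 10 rose in each line, with medians of 1.42 to 1.58. Hells, a chromatin remodeller needed for methylation of repeats, rose 8.1-fold to 11-fold. Lig1, the ligase of replication that is a Uhrf1 partner, rose 7.47-fold to 10.3-fold, and Cdca7, which recruits Hells, 7.02-fold to 10.9-fold. Usp7, a deubiquitinase that binds Dnmt1, rose 3.87-fold to 5.09-fold. Uhrf2, the relative of Uhrf1, fell in CL11 (log2 -0.61, adjusted p = 0.0013) and IP20D-3 (-0.53, adjusted p = 0.00436). In the others it missed the threshold (-0.32, adjusted p = 0.0807 in IP14D-1 and -0.07, adjusted p = 0.722 in IP14D-101).

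Genes that recruit, protect or hold back methylation rose in 10 of 12 cases in CL11 and 11 of 12 in each iPS line. None fell, and the medians were 1.48 to 1.57. Morc1, which acts in silencing of transposons, was below background in MEF and higher in the lines by factors of at least 45.7, 30.6, 21.4 and 33.6 in line order. Dppa3, which limits Uhrf1 on chromatin, was higher by factors of at least 17.1, 16.8, 16.5 and 35.2, and exceeded CL11 in IP20D-3 by 1.05 (adjusted p = 0.0136). Prdm14, a repressor of de novo methyltransferases, was at least 6.36-fold to 8.68-fold higher, and passed no comparison between lines. Zfp57, which keeps methylation at imprinted regions, rose 16-fold, 6.29-fold, 12.2-fold and 8.21-fold. It was lower than in CL11 by a log2 difference of -1.34 in IP14D-1 (adjusted p = 1.91e-07), -0.96 in IP20D-3 (adjusted p = 8.83e-06) and -0.39 in IP14D-101 (adjusted p = 0.0414).

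Demethylation and base excision repair genes were mixed. Of 21 measured, 11, 10, 12 and 11 rose and 3, 5, 3 and 5 fell in line order, with medians of 0.34 to 0.51. Ung, the uracil glycosylase, rose 8.84-fold to 11.5-fold. Mbd4, a thymine glycosylase that binds methylated CpG, rose 4.02-fold to 7.18-fold, and Parp1 4.34-fold to 6.22-fold. Apobec2, of the deaminase family, was at least 1.54-fold to 4.43-fold higher. Gadd45g, a stress-induced gene linked to demethylation, fell 18.6-fold in CL11 and 22.7-fold in IP14D-101. In IP14D-1 it fell 2.38-fold and in IP20D-3 4.57-fold, and all its differences between lines except that of IP14D-101 from CL11 passed the test. IP14D-1 exceeded CL11 by 2.97 on the log2 scale (adjusted p = 3.45e-11).

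In the list of readers more genes fell than rose. Of 7 measured, 2 rose in each line, near the share of all genes, and 5, 3, 5 and 4 fell, with medians of -0.81, -0.25, -0.98 and -0.55. Zbtb4 went from above background in MEF to below it in every line, at least 10.2-fold lower. Mbd2 fell 3.37-fold, 3.73-fold, 4.33-fold and 5.74-fold in line order, while Mbd3, which takes the place of Mbd2 in the NuRD complex and binds methylated CpG poorly, rose 1.68-fold to 2.62-fold.

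Genes of the methyl donor list, not all of which supply methyl groups, rose in 8 of 11 cases in every line and fell in 1. The medians were 1.12 to 1.31. Gldc, which cleaves glycine into the folate pool, was higher by factors of at least 20.7, 34.6, 30.4 and 64.6. Shmt1 rose 15.1-fold to 18.8-fold and Mthfd1 7.09-fold to 11.6-fold, both folate enzymes. Ahcyl1 was the gene that fell, by 1.74-fold to 2.58-fold. Between lines, 33.9% of the 62 partner genes differed in IP14D-1 against CL11 (22.2% of all genes), 19.4% in IP14D-101 against CL11 (9.75%) and 29% in IP20D-3 against CL11 (19.5%). Among iPS lines it was 53.2% in IP14D-101 against IP14D-1 (26.9% of all genes), 16.1% in IP20D-3 against IP14D-1 (7.4%) and 41.9% in IP20D-3 against IP14D-101 (22%).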

How the data were processed

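Expression was measured in 5 groups of 3 arrays. The deposited table holds intensity values, MAS5 signals that the authors made, per the submitters' processing notes, with Affymetrix Expression Console (version not given in the sources used here); no raw scans were used. Of 45101 probe sets, 64 array controls were left out. Each array was scaled to the mean of the 2% trimmed means, which ran from 11198.1 to 20466, a ratio of 1.83. Probe sets were named by the platform annotation: 34945 named 1 gene, 932 several (left out of gene counts) and 9160 none. Arrays of a group correlated at 0.941 to 0.954 and arrays of different groups at 0.78 to 0.943, so these ranges overlap. No pair of arrays was identical. The number of arrays limits the precision.

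A mean per group was fitted to log2(signal + 16) with limma 3.58.1 in R 4.3.3, with variances moderated on a trend with mean level, and p values were adjusted over all 45037 probe sets within each comparison. A difference passed at an adjusted p under 0.05. Errors are standard errors of this model. Where the dimmer group's mean lay below background, its arrays below background were raised to it and the fold is given as "at least"; where both did, no fold is given. The fit was also run on simulated arrays with few probe sets changed, in CL11 only. That setting is unlike these data, so it is no check of the calls given here.

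The members, the partner and marker lists and the promoter motifs were chosen with earlier results of these data known. Genes named from a list are up to 4 per comparison with the largest change among those that passed with the brighter group above background, and Uhrf2, Ahcyl1 and Otx2 were in part named after their values were seen. Alternatives covered scaling, pseudocount, variance model, arrays fitted, filtering and leaving out each array. The choice of main probe set was varied only in counts of genes, and it left the main probe sets of the members unchanged.

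Replicate numbers did not pair the samples: deviations of samples with the same number correlated at -0.03 to 0.03 across groups.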

Additional observations from a re-analysis of the deposited data

Results flagged for a closer look

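Each of the 18 differences between lines that passed limma's test is also a difference between the lines' changes against MEF, because the same MEF arrays stand on both sides. They come from 48 tests and concern 6 genes. For Dnmt1 they were -0.4 in IP14D-1 minus CL11, 0.64 in IP14D-101 minus IP14D-1 and 0.53 in IP20D-3 minus IP14D-1, on the log2 scale as for all values here. For Uhrf1 the same 3 pairs gave -0.44, 0.31 and 0.43. For Dnmt3a they were -0.87 in IP14D-1 minus CL11, 1.03 in IP14D-101 minus IP14D-1 and -0.73 in IP20D-3 minus IP14D-101. For Dnmt3b they were 0.78 in IP14D-1 minus CL11, 0.88 in IP20D-3 minus CL11, -0.45 in IP14D-101 minus IP14D-1 and 0.55 in IP20D-3 minus IP14D-101. For Dnmt3l they were -0.6, -1.18 and -0.83 in IP14D-1, IP14D-101 and IP20D-3 minus CL11, and -0.58 in IP14D-101 minus IP14D-1. For Tet2 it was -0.63 in IP14D-101 minus CL11. Groups of 3 arrays are too small for a test of single outlying samples.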

How the results depend on the processing

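The 28 rises against MEF kept their call and direction under all alternatives run for them, and 4 of the 18 differences between lines did. These alternatives kept each gene's main probe set. With the deposited signals unscaled, the median of all genes moved by up to 0.62 on the log2 scale, and 0.828% of calls in IP20D-3 minus IP14D-1 were higher instead of 52.3%. With scaling to the median, 84.3% of calls in IP14D-101 minus IP14D-1 were higher instead of 53.4%. Unscaled signals changed the sign of Dnmt1 (1447877_x_at -0.03, adjusted p = 0.884) and Uhrf1 (-0.17, adjusted p = 0.369) in IP14D-101 minus IP14D-1, and both calls ended. In IP20D-3 minus IP14D-1 the same held for Dnmt1 (-0.01, adjusted p = 0.937) and Uhrf1 (-0.11, adjusted p = 0.565). Tet2 (-0.53, adjusted p = 0.0117) and Dnmt3a (1423065_at -0.47 and 1423063_at -0.43, adjusted p = 0.0336 and 0.0494) had not passed there with the main scaling. Unscaled they passed, with the sign changed. Members that passed then numbered 3 in IP14D-1 minus CL11, 4 in IP20D-3 minus CL11 and 1 in IP20D-3 minus IP14D-101, and partners 7 in IP14D-101 minus CL11 and 34 in IP20D-3 minus IP14D-1. Scaling to the median left 1 member in IP14D-101 minus CL11 and 1 in IP20D-3 minus IP14D-101. Without a trend in limma, members that passed were 3, 1 and 1 in IP14D-1, IP14D-101 and IP20D-3 minus CL11, 2 in IP14D-101 minus IP14D-1, 1 in IP20D-3 minus IP14D-1 and 0 in IP20D-3 minus IP14D-101, where 2 had an unadjusted p under 0.05 and 2 passed with the trend. Partners were then 13, 6 and 11 against CL11, 4 in IP20D-3 minus IP14D-1 and 14 in IP20D-3 minus IP14D-101, and 17 in the last pair when only its own arrays were fitted. Leaving out 1 array gave 1 to 2 members in IP14D-101 minus CL11, 2 to 4 in IP14D-101 minus IP14D-1, 1 to 2 in IP20D-3 minus IP14D-1 and 1 to 3 in IP20D-3 minus IP14D-101. Partners ranged from 13 to 20 in IP14D-1 minus CL11, 6 to 12 in IP14D-101 minus CL11 and 5 to 9 in IP20D-3 minus IP14D-1. With the replicate number as a block, the members that passed were 8, 7, 7 and 7 against MEF and 5, 2, 2, 5, 2 and 2 between lines, as without it; the numbers did not pair the samples. Of 3070 log2 changes recomputed under alternatives, 80 that passed neither way changed sign. The cause of these changes was not tested. Tet3, and Dnmt3b and Dnmt3l in MEF, are limited by signal over background: 6 members were above it in MEF with the 90th percentile as background, 5 with the 95th and 4 with the 99th.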
